A study of Mus musculus with 13 samples.

Results

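The comparison of day 4 with day 1 after total body irradiation (TBI) rested on 6 of the 13 bulk RNA-seq libraries of the series, 3 from day 4 and 3 from day 1, found by the day given in the sample labels. All 13 libraries held RNA of CD45- thymic stroma cells from wild-type C57BL/6 mice that were 2 months old. The mice of both days had received sublethal TBI, so that the groups differed by the time since the injury. The 4 steady-state libraries, labelled untreated and named in the count table after PBS controls, and the 3 libraries from day 7 after TBI were used to place the levels. The methods of the study call the bulk libraries biological replicates, and the labels do not say how many mice each held. All CD45- cells of a sample were sequenced together, so that fewer cells of a type and less RNA per cell cannot be told apart.

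The thymic stroma is made of epithelial cells of the cortex (cTECs) and medulla (mTECs), fibroblasts, endothelial cells, pericytes and mesothelium, and it provides the Notch ligands, chemokines and cytokines on which developing T cells depend. Irradiation kills most thymocytes within a day, while much of the stroma survives, takes up a damage response and then drives the regrowth of the organ. Interferons and inflammatory cytokines are early signals in injured tissue, and FOXN1 is the transcription factor that sets the program of TECs.

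The libraries held from 15721866 (day 4 replicate 1) to 52056896 (day 4 replicate 2) counts. Levels are given as normalized CPM, a gene's share of its library's counts on a fixed scale, after each library's total was adjusted by a normalization factor. The column names of the table end in a tag with no stated meaning, which starts with k in day 1 replicate 1, day 4 replicate 2 and day 4 replicate 3 and not in day 1 replicates 2 and 3 or day 4 replicate 1. The libraries divided by this tag as well as by day. Across genes, day 4 replicate 1 had its highest correlation with day 1 replicate 3 (Pearson's r = 0.97), and day 1 replicate 1 had its highest with day 4 replicate 2 (r = 0.944). With the day held in the same fit, 619 genes were higher and 1049 lower in libraries with a k tag. Each day held libraries with and without a k, but the k tags differed, starting with kk in day 1 replicate 1 and with k3 in day 4 replicates 2 and 3.

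**Figure D1:**
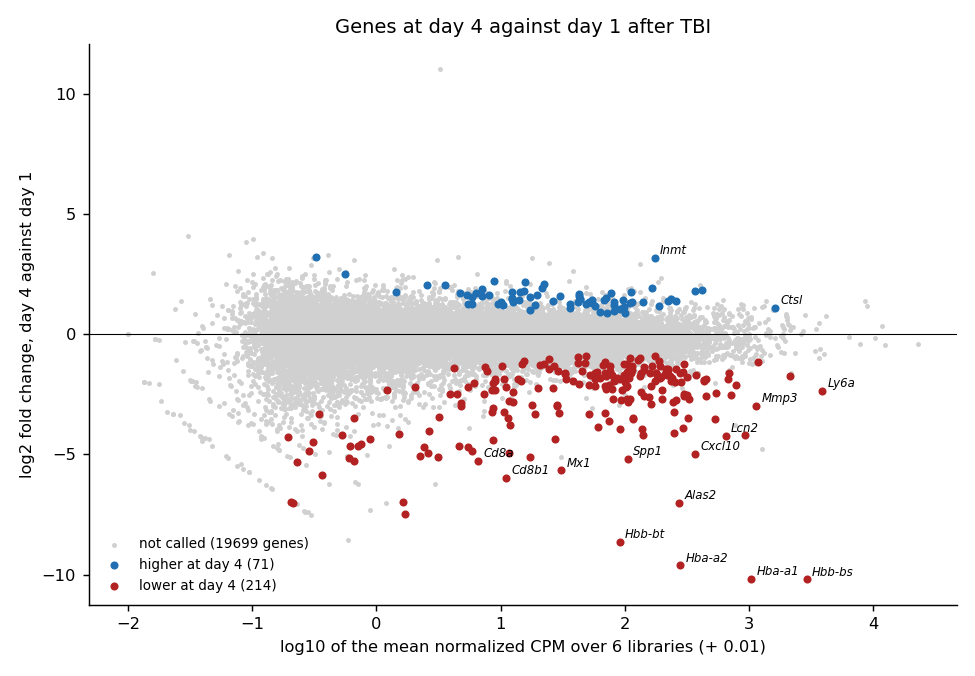
Each point is 1 of 19984 genes, with the log10 of its mean normalized CPM over the 6 libraries of days 1 and 4 (plus 0.01) on the horizontal axis and its log2 fold change at day 4 against day 1 on the vertical axis. The 214 genes called lower (red) reach farther from 0 than the 71 called higher (blue), and hemoglobin genes such as Hbb-bs and Hba-a1 lie lowest.

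Between day 1 and day 4, 71 genes rose and 214 fell. These were 0.355% and 1.07% of the 19984 genes tested. A gene was called where its p in the quasi-likelihood F-test of edgeR, adjusted by Benjamini and Hochberg's method (edgeR adjusted p), was at most 0.05. Most of the changes were large, with 66 of the 71 and 209 of the 214 over 2-fold, and the median log2 fold change was 1.46 for the genes that rose and -2.21 for those that fell, against -0.10 over all genes tested. The same genes were read against steady state, in comparisons that share these libraries: the 214 that fell had a median of 2.05 at day 1 and 0.01 at day 4, and the 71 that rose had a median of -1.11 at day 1 and 0.37 at day 4. All 285 had no overlap between the libraries of both days, as did 12.6% of all genes tested with day 4 above and 13.7% with day 4 below. Within the libraries without a k tag, 2 of day 1 and 1 of day 4, the median difference on the log2(CPM + 0.5) scale was 1.21 over the 71 genes and -1.69 over the 214, where the absence of overlap had fixed the direction. The number of rises depended on single libraries: it was 14 without day 1 replicate 1, 7 without day 1 replicate 2, 32, 4 and 5 without replicates 1, 2 and 3 of day 4, and 91 without day 1 replicate 3. The number of falls was 165, 162 and 196 without the replicates of day 1 in turn and 115, 87 and 82 without those of day 4. With the tag as a covariate in 3 levels (kk, k3 and neither), 14 genes rose and 149 fell. In 2 levels (k or not), a setting added after seeing the data, 164 rose and 439 fell.

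Among the genes of the damage response, the strongest change was in those induced by interferon, which are effectors against viruses, chemokines and the transcription factors that switch them on. Of 30 such genes 29 fell from day 1 to day 4, beside 1.07% of all genes. The other, the chemokine gene Cxcl9 (named as the exception), had a log2 fold change of -1.14 ± 0.38 (SE; edgeR adjusted p = 0.099). The median log2 fold change of the list was -2.70. In all 30 genes the 3 libraries of day 4 lay below the 3 of day 1 (13.7% of all genes). Summed over the list, the level was 20889, 10914 and 10294 CPM in the replicates of day 1 and 2249, 2198 and 2229 CPM in those of day 4. The 4 steady-state libraries lay between 1866 and 2244 CPM, and 2 of the 3 libraries of day 4 were inside that range. Against steady state, 29 of the 30 genes were higher at day 1 (background 1.68% higher over all genes), and none passed the test at day 4 in either direction (background 0.29%), with 3 at an unadjusted p under 0.05 in edgeR (13% of all genes tested). Between 23 (without day 4 replicate 3) and 29 members were called lower when 1 of the 6 libraries was left out.

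Ifit3 (ENSMUSG00000074896, chr19:34583531-34588731 of GRCm38, plus strand), an antiviral protein induced by interferon, was at 2781, 1232 and 1279.7 CPM in the replicates of day 1 and at 98.4, 79.2 and 112 CPM in those of day 4, a log2 fold change of -4.19 ± 0.75 (SE; edgeR adjusted p = 0.00012). Its close copy Ifit3b fell by 4.11 on the log2 scale, and the counting could have divided reads between them. Mx1, a GTPase that blocks the replication of viruses, stood at 96.1, 41.3 and 44.6 CPM at day 1 and at 1.16, 1.14 and 1.26 CPM at day 4. The fall of Mx1 (log2 fold change -5.67 ± 1.19, edgeR adjusted p = 0.0012) took all 3 libraries of day 4 to just under the steady-state range of 1.28 to 4.93 CPM, a difference that did not pass the test (log2 fold change -1.18 ± 0.63, edgeR adjusted p = 0.40). Cxcl10, a chemokine that draws in T cells, was at 1142, 434 and 554 CPM at day 1 and at 15.7, 29.5 and 22.3 CPM at day 4. For Cxcl10, the log2 fold change was -4.98 ± 1.06 (edgeR adjusted p = 0.0014). In each of these genes, day 1 replicate 1 was the highest library. All 4 calls were kept without any single replicate of either day.

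Other members of the list, named after their values were seen, included a transcription factor and effectors. Irf7, a factor that amplifies the response, was at 1759, 1149 and 924 CPM at day 1 and at 293, 297 and 287 CPM at day 4 (log2 fold change -2.13 ± 0.51, edgeR adjusted p = 0.0074). Irf7 was not called without any 1 of the replicates of day 4 (0.055 to 0.059). The 4 steady-state libraries of Irf7 were at 101 to 228 CPM, below all 3 of day 4, but this difference did not pass the test (log2 fold change 1.04 ± 0.37, edgeR adjusted p = 0.21). Isg15, a ubiquitin-like protein, was at 927, 379 and 366 CPM at day 1 and at 34.1, 39.4 and 38.1 CPM at day 4 (log2 fold change -3.90 ± 0.71, edgeR adjusted p = 0.00014). Its 3 libraries of day 4 were inside the steady-state range of 29.3 to 41.1 CPM. Rsad2, an enzyme that makes an antiviral nucleotide, was at 977, 363 and 442 CPM at day 1 and at 50.1, 38.5 and 68.2 CPM at day 4, a fall of 3.51 on the log2 scale. Here the day 4 libraries lay under the steady-state range of 118 to 249.5 CPM, without passing the test (log2 fold change -1.87 ± 0.54, edgeR adjusted p = 0.09).

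Parts of promoters are shown for 4 of the genes that fell and whose promoter held the interferon-stimulated response element. RefSeq promoters (GRCm38.p6, 250 bases before to 50 after the start of the gene) were found for 23 of the 30 interferon-list genes and were searched on both strands for that element, written as GAAANNGAAA. It was in 15 of the 23, and in 15 of the 22 that fell, against 3.44% of 32851 promoters. A gene was counted where any of its promoters held the element, while the background counts single promoters. The other 7 that fell, namely Cmpk2, Ifi44, Ifit2, Irf7, Oasl1, Oasl2 and Xaf1, held no match in this window. Of 25 genes of the acute inflammation list with a promoter, 1 held it, and 4 held the kappaB element GGGANNTTCC (1.47% of all promoters). None of these 4 was among the 5 genes with a promoter that fell. A match is a run of letters and not a measured binding site. The parts are given 5′ to 3′ on the strand of the gene, with the matches in capitals: Ifit3 from chr19:34583323-34583466 (plus strand, matches on the other strand), Isg15 from chr4:156200825-156200946 (minus strand, 3 matches that overlap), Rsad2 from chr12:26456513-26456622 (minus strand, match on the other strand) and Cxcl10 from chr5:92349043-92349139 (minus strand).
Ifit3: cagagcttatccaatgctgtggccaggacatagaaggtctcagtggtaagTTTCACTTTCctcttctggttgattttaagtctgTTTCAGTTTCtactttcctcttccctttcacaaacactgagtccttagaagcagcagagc
Isg15: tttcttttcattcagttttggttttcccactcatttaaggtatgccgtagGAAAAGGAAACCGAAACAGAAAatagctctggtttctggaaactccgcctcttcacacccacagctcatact
Rsad2: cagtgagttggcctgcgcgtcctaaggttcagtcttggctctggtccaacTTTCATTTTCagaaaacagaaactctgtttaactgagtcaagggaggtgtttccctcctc
Cxcl10: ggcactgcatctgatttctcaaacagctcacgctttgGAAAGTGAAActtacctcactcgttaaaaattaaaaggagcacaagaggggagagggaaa

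Acute inflammation genes (cytokines, chemokines and acute phase proteins) resolved in part of the list. Of the 32 genes 8 fell (1.07% of all genes) and none rose, with a median log2 fold change of -1.05. In 21 of the 32 the libraries of day 4 lay below those of day 1 (13.7% of all genes). At day 1, 10 of the 32 were above steady state (1.68% of all genes). At day 4 none passed the test against steady state, and 5 had an unadjusted p under 0.05 in edgeR, near the share of 13% over all genes. DESeq2 called 13 of the 32 lower at day 4 than at day 1 (background 2.84% lower and 1.96% higher over all genes in DESeq2). The count of falls was 5, 5 and 4 without replicates 1, 2 and 3 of day 4. Lcn2, lipocalin 2, which withholds iron from bacteria, was at 2063, 907 and 736 CPM at day 1 and at 57.6, 82.0 and 57.3 CPM at day 4. In Lcn2, the log2 fold change was -4.23 ± 1.04 (edgeR adjusted p = 0.0086). Its levels at day 4 remained above the 8.04 to 37.7 CPM of steady state, a difference that did not pass the test (log2 fold change 1.89 ± 0.69, edgeR adjusted p = 0.22), and the fall from day 1 was not called without any 1 of the day 4 replicates (0.053 to 0.069).

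Ccl7 and Ccl2, chemokines that attract monocytes, fell as well. Ccl7 was at 423, 178 and 202 CPM at day 1 and at 12.5, 20.5 and 10.7 CPM at day 4 (log2 fold change -4.19 ± 0.91, edgeR adjusted p = 0.0017), inside the 7.7 to 29.5 CPM of steady state. Ccl2, named after its values were seen, was at 262, 119 and 139.8 CPM at day 1 and at 7.68, 16.3 and 9.76 CPM at day 4. For Ccl2, the log2 fold change was -3.94 ± 0.92 (edgeR adjusted p = 0.005). Both calls were kept without any single replicate of either day. Of the chemokines that attract neutrophils, named after their values were seen, Cxcl5 was at 397, 237 and 138 CPM at day 1 and at 9.68, 27.5 and 12.7 CPM at day 4 (log2 fold change -3.95 ± 1.01, edgeR adjusted p = 0.014), a call lost without day 4 replicate 1 (0.070) or replicate 3 (0.095). Cxcl1, with overlap between the days, and Cxcl2 did not pass the test, at log2 fold changes of -0.68 ± 0.49 (edgeR adjusted p = 0.56) and -1.55 ± 0.65 (edgeR adjusted p = 0.245). The acute phase gene Saa2 was at 12.98, 12.6 and 8.32 CPM at day 1 and at 0.323, 0.404 and 0.407 CPM at day 4 (log2 fold change -4.87 ± 1.14, edgeR adjusted p = 0.0054), and it shares sequence with its neighbours Saa1 and Saa3. Saa3 itself was at 3784, 2058 and 1546 CPM at day 1 and at 93.1, 116 and 62.9 CPM at day 4, without overlap, and the change did not pass the test in the fit of all libraries (log2 fold change -4.77 ± 1.73, edgeR adjusted p = 0.15). In a fit of the libraries of days 1 and 4 alone Saa3 was called (edgeR adjusted p = 0.014). At steady state 1 library was at 258 CPM and the others were at 8.43 to 20.9 CPM, and the part of that library in the missed call was not tested.

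Other falls were scattered over lists that held few calls. Mmp3, a secreted protease that degrades matrix, was at 3146, 1504 and 1456 CPM at day 1 and at 265, 268 and 241 CPM at day 4 (log2 fold change -2.98 ± 0.70, edgeR adjusted p = 0.005), a call kept without any single replicate. All 3 libraries of day 4 were still above the 44.3 to 146 CPM of steady state, without passing that test (log2 fold change 1.51 ± 0.49, edgeR adjusted p = 0.15). Mmp13, a collagenase, was at 10.6, 4.04 and 3.64 CPM at day 1 and at 0, 0.211 and 0.241 CPM at day 4, where its levels rest on few counts (edgeR adjusted p = 0.0083, and 0.065 and 0.055 without replicates 2 and 3 of day 4). These 2 genes were the only ones of the 37 in the extracellular matrix list to be called in edgeR, beside 1.07% of all genes lower. The list had a median log2 fold change of -0.53. At an unadjusted p under 0.05 in edgeR, 8 were lower and 1 higher (8.1% and 5.56% of all genes). DESeq2 called 4 lower (2.84% of all genes). Ly6a, a surface protein of mesenchymal progenitors (Sca-1) that interferon also induces, was at 10961, 4645 and 4006 CPM at day 1 and at 1136, 1528 and 1176 CPM at day 4 (log2 fold change -2.35 ± 0.62, edgeR adjusted p = 0.019). It was not called without day 1 replicate 1 (0.058) or any 1 of the replicates of day 4 (up to 0.12). Spp1, the matrix protein osteopontin, was at 181, 311 and 124 CPM at day 1 and at 4.19, 6.67 and 6.09 CPM at day 4 (log2 fold change -5.17 ± 1.45, edgeR adjusted p = 0.033). This call was lost without 5 of the 6 replicates in turn (up to 0.17). Mt2, a metallothionein that binds metal ions, was the 1 gene called of 11 in the stress hormone and metal list, beside 1.07% of all genes lower. In Mt2, the log2 fold change was -3.28 ± 0.83 (edgeR adjusted p = 0.013), and the call was lost without any 1 of the replicates of day 4 (up to 0.091).

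**Figure D2:**
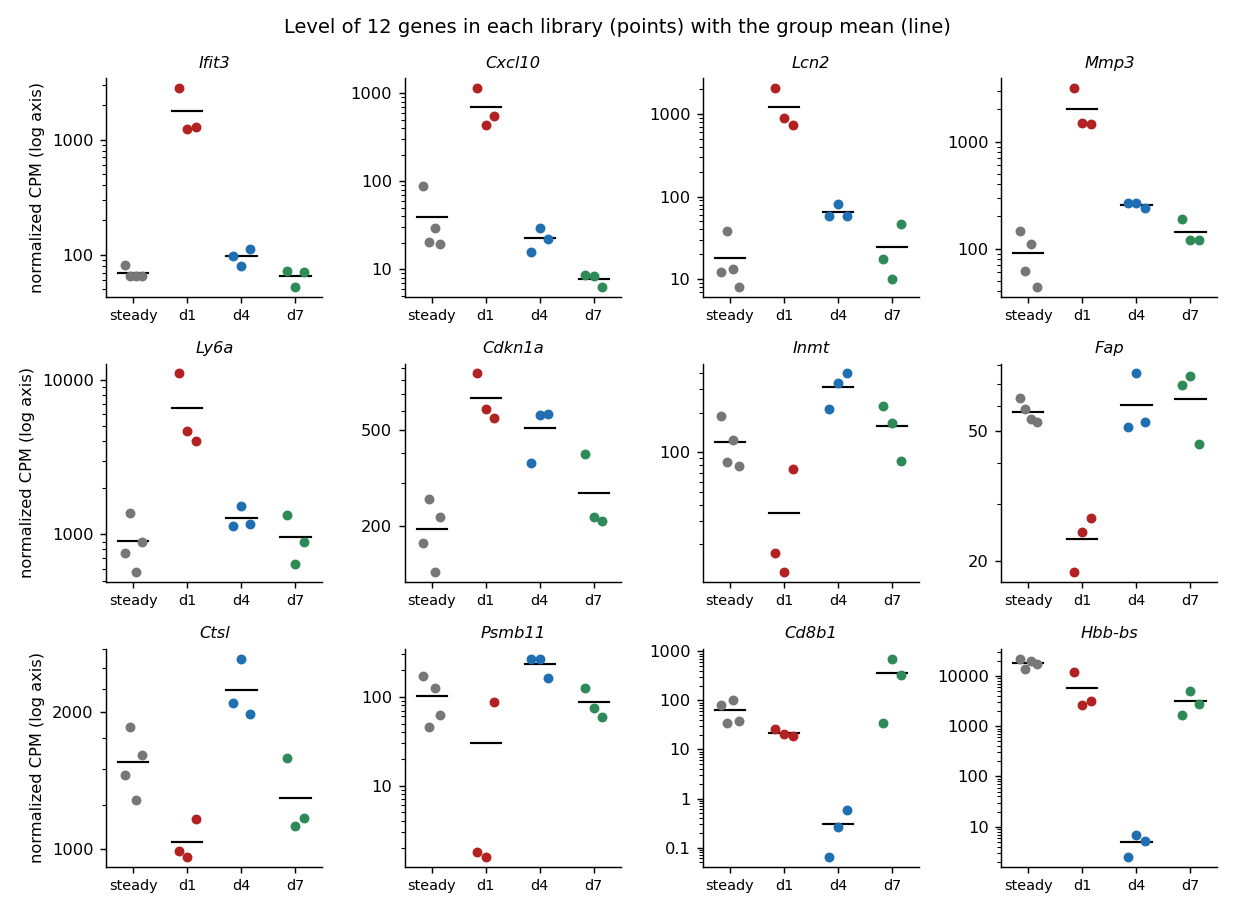
Normalized CPM on log axes for 12 genes, with 1 point per library at steady state (4 libraries) and on each day after TBI (3 libraries each) and a line at the group mean. Ifit3, Cxcl10, Lcn2, Mmp3 and Ly6a are highest at day 1, Inmt and Fap are lowest there, and Cd8b1 and Hbb-bs are lowest at day 4.

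Genes of the p53 response, through which irradiated cells arrest, repair or die, did not follow the interferon genes. None of the 24 was called between days 1 and 4 in edgeR or DESeq2 (3 lower at an unadjusted p under 0.05, beside 8.1% of all genes lower and 5.56% higher by that rule), and the median log2 fold change was -0.37. Against steady state, 7 of the 24 were higher at day 1, beside 1.68% of all genes, and none was called at day 4. At day 4, 9 had an unadjusted p under 0.05, beside 13% of all genes. The sum over the list was 1624 to 2134 CPM at steady state, 3489 to 3668 CPM at day 1, 2660 to 3087 CPM at day 4 and 2036 to 2479.5 CPM at day 7. The libraries of day 4 thus lay between those of day 1 and those of steady state without overlap. Cdkn1a, which encodes the cell cycle inhibitor p21 and was named after its values were seen, was at 855, 609 and 559 CPM at day 1 and at 363, 574 and 582 CPM at day 4. The libraries of Cdkn1a overlapped between the days (log2 fold change -0.41 ± 0.35, edgeR adjusted p = 0.63), and all 6 were above the 129 to 258 CPM of steady state. The difference of Cdkn1a from steady state passed the test at day 1 (log2 fold change 1.8026 ± 0.45, edgeR adjusted p = 0.0069) and did not at day 4 (1.39 ± 0.41, edgeR adjusted p = 0.091).

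Genes of the cell cycle were not called either. None of the 22 mitosis genes passed the test between days 1 and 4 in edgeR or DESeq2, and 0 had an unadjusted p under 0.05. Of these, 20 of the 22 had a log2 fold change above 0, and the median was 0.45. Summed over the list, the level was 41.4, 59.3 and 59.4 CPM in the replicates of day 1 and 93.6, 62.5 and 72.8 CPM in those of day 4. Steady state ranged from 159 to 417 CPM and day 7 from 175 to 2553 CPM. Plk1, the kinase that drives entry into mitosis, was at 1.39, 1.67 and 2.16 CPM at day 1 and at 4.65, 3.55 and 4.41 CPM at day 4. In Plk1, the log2 fold change was 1.26 ± 0.82 (edgeR adjusted p = 0.51). The 16 DNA replication genes had a median of -0.18 with none called by either tool and 0 at an unadjusted p under 0.05. Rrm2, a subunit of the enzyme that makes deoxynucleotides, was at 2.77 to 5.51 CPM at day 1 and 8.66 to 10.5 CPM at day 4 (edgeR adjusted p = 0.46).

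Among the genes that rose were enzymes, matrix proteins and adhesion proteins. The libraries of day 4 overlapped those of steady state in 41 of the 71. At day 1, 34 of the 71 were called lower than at steady state (0.671% of all genes), in a comparison that shares the day 1 libraries by which the 71 were found low, so that nothing is read from this share. The largest rise was in Inmt (ENSMUSG00000003477, chr6:55170626-55175043, minus strand), an enzyme that methylates indoles and that marks fibroblasts, at 17.2, 12.4 and 74.9 CPM at day 1 and at 212, 333 and 396 CPM at day 4 (log2 fold change 3.17 ± 0.87, edgeR adjusted p = 0.027). Its steady-state libraries were at 79.0 to 189.9 CPM, below all 3 of day 4, without passing that test (log2 fold change 1.39 ± 0.62, edgeR adjusted p = 0.33). Omd, a keratan sulfate proteoglycan of the matrix, was at 3.39, 1.49 and 4.42 CPM at day 1 and at 10.7, 18.1 and 14.7 CPM at day 4. For Omd, the log2 fold change was 2.21 ± 0.58 (edgeR adjusted p = 0.018). Col6a6, a chain of collagen VI, was at 29.5, 51.2 and 71.8 CPM at day 1 and at 155, 221 and 146 CPM at day 4. In Col6a6, the log2 fold change was 1.78 ± 0.47 (edgeR adjusted p = 0.02). Both genes were near their steady-state levels at day 4, which were 11.6 to 17.7 CPM for Omd and 134 to 230.2 CPM for Col6a6. Itga8, the integrin chain that binds nephronectin, rose from 8.998 ± 4.73 to 33.8 ± 5.86 CPM (mean ± SD, n = 3 each; edgeR adjusted p = 0.02).

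Secreted factors and metabolic enzymes were among the other large rises. Penk, the precursor of the enkephalins, was at 36.1, 64.4 and 106 CPM at day 1 and at 237, 314 and 237 CPM at day 4. For Penk, the log2 fold change was 1.93 ± 0.53 (edgeR adjusted p = 0.028). Angptl1, an angiopoietin-like secreted protein, rose from 5.74 ± 3.18 to 25.8 ± 1.92 CPM (edgeR adjusted p = 0.032). Cyp27a1, the enzyme that hydroxylates the side chain of cholesterol, rose from 8.51 ± 4.75 to 36.3 ± 5.65 CPM (edgeR adjusted p = 0.015), and its steady-state level was 35.4 ± 10.1 CPM (n = 4). For Penk, Angptl1 and Cyp27a1, the day 4 libraries overlapped those of steady state. Pltp, which transfers phospholipids between lipoproteins, was at 111, 145 and 290.1 CPM at day 1 and at 657, 719.7 and 590.2 CPM at day 4. In Pltp, the log2 fold change was 1.85 ± 0.51 (edgeR adjusted p = 0.029). All 3 day 4 libraries of Pltp were above its 241 to 379.9 CPM at steady state, and this difference did not pass the test (log2 fold change 1.13 ± 0.41, edgeR adjusted p = 0.21). Hdac11, a histone deacetylase, was likewise above steady state in all 3 libraries, at 11.2 ± 2.24 CPM against 4.27 ± 0.873 CPM, without passing that test (edgeR adjusted p = 0.099).

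Dpep1 (ENSMUSG00000019278, chr8:123186242-123201812, plus strand), a dipeptidase anchored in the membrane of fibroblasts, had the most stable rise of the 12 largest. It was at 155, 111 and 219 CPM at day 1 and at 481, 658 and 566 CPM at day 4. Its log2 fold change was 1.81 ± 0.43 (edgeR adjusted p = 0.0059). The call was kept without any single replicate of either day, with adjusted p between 0.0045 and 0.042. The other 11 of the 12 largest rises, namely Inmt, Omd, Angptl1, Cyp27a1, Penk, Itga8, Hdac11, Pltp, Opcml, Col6a6 and Kirrel3, were all lost without day 1 replicate 1, without day 1 replicate 2, without day 4 replicate 2 or without day 4 replicate 3. Without day 4 replicate 1, 7 of the 12 were called, and without day 1 replicate 3, all 12. The adjusted p of the lost calls reached 0.19 for Kirrel3. Opcml, a cell adhesion protein, rose from 6.83 ± 2.34 to 24.0 ± 6.17 CPM (edgeR adjusted p = 0.029).

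Kirrel3, an adhesion protein of the immunoglobulin family, went past its steady-state level. It was at 3.45, 5.57 and 10.5 CPM at day 1, at 24.6, 22.3 and 18.8 CPM at day 4 and at 3.78 to 8.24 CPM at steady state. Its level at day 4 was higher than at day 1 (log2 fold change 1.75 ± 0.51, edgeR adjusted p = 0.045) and than at steady state (1.99 ± 0.51, edgeR adjusted p = 0.034), and at day 7 it was at 7.1 to 8.25 CPM. Kirrel3 was 1 of 2 genes among the 71 to be called higher than at steady state. The other was Cirbp, an RNA-binding protein induced by cold, named as the second of 2, at 155 ± 2.04 CPM at day 4, 63.6 ± 20.7 CPM at day 1 and 50.4 ± 16.2 CPM at steady state (edgeR adjusted p = 0.047 against day 1 and 0.019 against steady state).

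**Figure D3:**
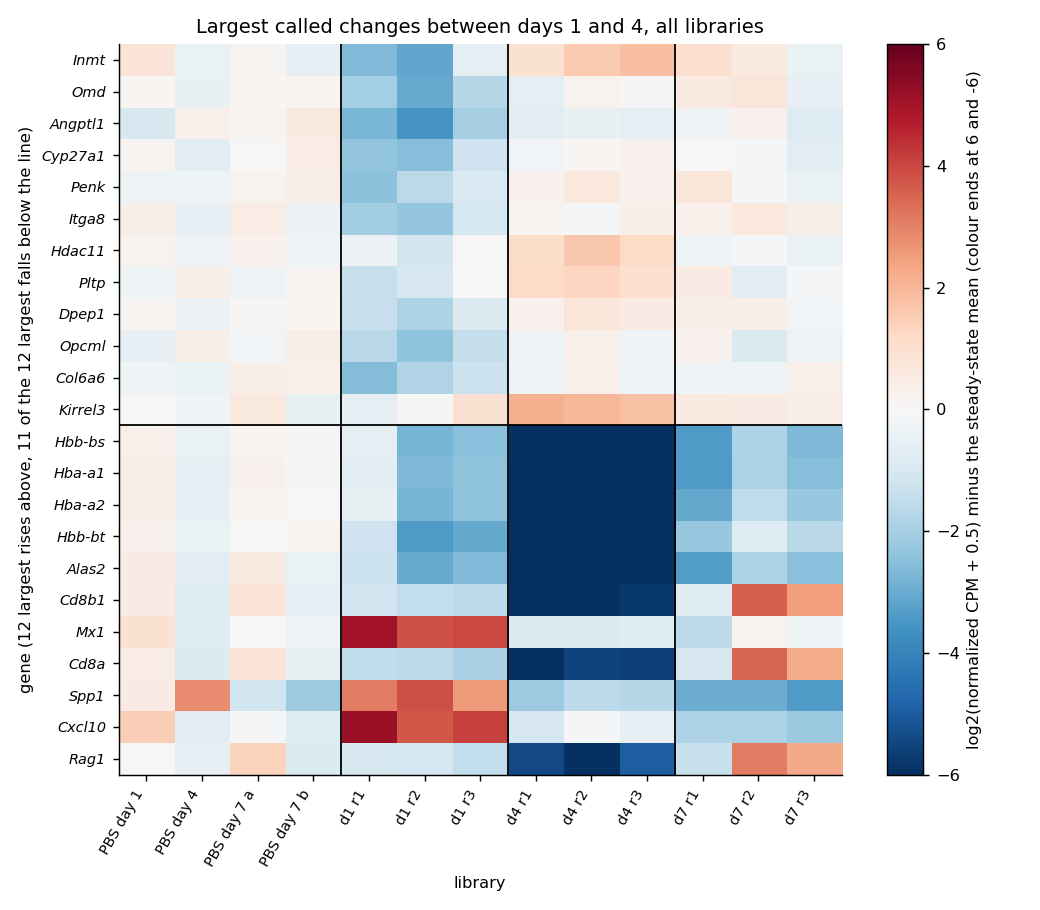
Colour gives log2(normalized CPM + 0.5) minus the steady-state mean for the 12 largest rises (above the line) and 11 of the 12 largest falls (below it) in each of the 13 libraries, with the colour ending at 6 and -6. The first 4 columns are the steady-state libraries by their PBS day (a and b are the replicates of day 7), and d1, d4 and d7 mark the days after TBI. Most rises are blue at day 1 and pale at day 4, Mx1 and Cxcl10 are red only in the day 1 columns among those after TBI, and the hemoglobin and Cd8 genes are dark blue at day 4.

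Fibroblast genes were called in both directions. Of 19 genes 2 rose, Inmt and Fap, and 1 fell, Ly6a (0.355% and 1.07% of all genes), with a median log2 fold change of 0.49. In 9 of the 19 the libraries of day 4 lay above those of day 1 (12.6% of all genes). Fap, a surface protease of activated fibroblasts, was at 18.5, 24.6 and 27.2 CPM at day 1 and at 51.4, 75.3 and 53.5 CPM at day 4 (log2 fold change 1.36 ± 0.35, edgeR adjusted p = 0.014), against 53.5 to 63.4 CPM at steady state. None of the 19 was called higher without day 1 replicate 1 or 2 or day 4 replicate 2 or 3, where the adjusted p of Fap was 0.051 to 0.10. Pdgfrb, a receptor of fibroblasts and pericytes, was lower in all 3 libraries of day 4, at 612 ± 54.7 CPM against 1394 ± 336 CPM, a difference that did not pass the test (log2 fold change -1.19 ± 0.38, edgeR adjusted p = 0.085). Pdgfra, the receptor used to identify thymic fibroblasts, was at 963 ± 278 CPM at day 1 and 719 ± 50.1 CPM at day 4, without overlap, with a log2 fold change of -0.42 ± 0.25 (edgeR adjusted p = 0.47).

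Further matrix and transport genes that rose are named after their values were seen. Abca6, a lipid transporter, was at 17.8, 15.9 and 27.3 CPM at day 1 and at 59.8, 71.6 and 64.9 CPM at day 4 (log2 fold change 1.68 ± 0.37, edgeR adjusted p = 0.0022), against 59.9 to 83.5 CPM at steady state. This call was kept without any single replicate of either day, with adjusted p between 0.0013 and 0.019. Itih5, which stabilizes hyaluronan in the matrix, rose from 125 ± 35.7 to 344 ± 36.0 CPM (edgeR adjusted p = 0.007, and 0.054 without day 4 replicate 2). Lama2, a laminin chain of basement membrane, rose from 79.5 ± 14.7 to 200.3 ± 39.6 CPM (edgeR adjusted p = 0.037). It was not called without any 1 of the 6 replicates (0.059 to 0.20). Ecm2, a matrix protein, rose from 37.0 ± 6.89 to 105 ± 14.7 CPM (edgeR adjusted p = 0.019), a call lost in 4 of the 6 removals (up to 0.11). At day 4, Abca6, Lama2 and Ecm2 overlapped the steady-state libraries.

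The cTEC list had the highest median log2 fold change of the lists examined, 1.44. All 16 of its genes had a fold change above 0. In 10 the libraries of day 4 lay above those of day 1 (12.6% of all genes), and 1, Ctsl, was called (0.355% of all genes). DESeq2 called 5 of the 16 higher (1.96% of all genes), and 10 were higher at an unadjusted p under 0.05 in edgeR (5.56% of all genes). The list's sum was 3150.4, 3144 and 4711 CPM in the replicates of day 1 and 8562, 8283 and 5778 CPM in those of day 4, against 3471 to 6083 CPM at steady state. Ctsl, cathepsin L, named as the 1 gene called, which processes peptides for MHC class II in cTECs and is made by many other cells, was at 991, 961 and 1164 CPM at day 1 and at 2098, 2621 and 1978 CPM at day 4. In Ctsl, the log2 fold change was 1.10 ± 0.32 (edgeR adjusted p = 0.04). That call was lost in each of the 6 removals of 1 replicate (0.069 to 0.23).

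The genes that define cTECs differed greatly among the replicates of day 1. Psmb11 (ENSMUSG00000072423, chr14:54621433-54629556, plus strand), the thymus-specific proteasome subunit that shapes the peptides for CD8+ T cells, was at 1.78, 1.58 and 88.1 CPM at day 1 and at 269, 267 and 163 CPM at day 4. Prss16, a protease of cTECs, was at 6.87, 16.9 and 451 CPM at day 1 and at 1332, 386 and 229.7 CPM at day 4, so that its groups overlapped. Cd83, which keeps MHC class II on the surface of cTECs, was at 1.07, 0.697 and 29.6 CPM at day 1 and at 87.6, 63.5 and 45.5 CPM at day 4. Day 1 replicate 3 was the high library in all 3 genes. With it none passed the test, at an edgeR adjusted p of 0.28 for Psmb11 (log2 fold change 2.93 ± 1.31), 0.48 for Prss16 and 0.28 for Cd83. Without it, 6 of the 16 cTEC genes were called higher, beside 91 of the 20752 genes tested in that fit. The log2 fold changes there were 7.11 (edgeR adjusted p = 0.00054) for Psmb11, 5.77 (0.013) for Prss16 and 6.18 (0.0014) for Cd83. Without any 1 of the other replicates of days 1 and 4, 0 of the 16 were called higher.

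Foxn1 and the genes linked to it did not pass the test with all libraries. Foxn1 was at 21.7, 10.9 and 42.3 CPM at day 1 and at 88.9, 91.8 and 56.9 CPM at day 4, with no overlap. At steady state it ranged from 12.6 to 94.6 CPM, and the change did not pass the test (log2 fold change 1.66 ± 0.75, edgeR adjusted p = 0.28, and 0.21 without day 1 replicate 3). Ccl25, the chemokine that brings progenitors into the cortex, was at 52.1, 22.6 and 126 CPM at day 1 and at 311, 380.1 and 222 CPM at day 4. For Ccl25, the log2 fold change was 2.19 ± 0.75 (edgeR adjusted p = 0.12, and 0.04 without day 1 replicate 3). Dll4, the Notch ligand that commits progenitors to the T lineage, was at 10.2, 22.0 and 41.0 CPM at day 1 and at 85.3, 46.6 and 63.4 CPM at day 4. In Dll4, the log2 fold change was 1.42 ± 0.53 (edgeR adjusted p = 0.17, and 0.051 without day 1 replicate 3). In Ccl25 and Dll4, as in Foxn1, every library of day 4 lay above every library of day 1, beside 12.6% of all genes. Tbata, a gene of the cortical epithelium, was at 44.1, 17.2 and 132 CPM at day 1 and at 334, 436 and 212 CPM at day 4 (edgeR adjusted p = 0.15, and 0.041 without day 1 replicate 3). Over 15 alternative settings of the analysis, Foxn1 was called in 0, Ccl25 in 4, Dll4 in 2 and Tbata in 3. Epcam, the adhesion protein of epithelial cells, went with the tag and not with the day, at 14.03 CPM in day 1 replicate 1, 24.4 and 25.5 CPM in day 4 replicates 2 and 3, and 99.8 to 127 CPM in the libraries of both days without a k.

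None of the 28 thymic growth factors and receptors was called in edgeR, and the median of the list was 0.045. At an unadjusted p under 0.05, 4 were higher and 1 lower (5.56% and 8.1% of all genes), and DESeq2 called 1 higher (1.96% of all genes). Il7, the cytokine that keeps early thymocytes alive, was at 44.6, 23.1 and 58.0 CPM at day 1 and at 115, 138 and 93.7 CPM at day 4, above steady state (20.1 to 80.6 CPM) in all 3 libraries. Against day 1 its log2 fold change was 1.46 ± 0.57 (edgeR adjusted p = 0.19). Fgf10, a growth factor from the mesenchyme for TECs, was at 43.8, 35.0 and 41.7 CPM at day 1 and at 82.3, 106 and 81.6 CPM at day 4. For Fgf10, the log2 fold change was 1.16 ± 0.43 (edgeR adjusted p = 0.16). Bmp4, which acts upstream of Foxn1, was at 28.3, 14.1 and 20.6 CPM at day 1 and at 36.7, 43.7 and 46.2 CPM at day 4. In Bmp4, the log2 fold change was 1.01 ± 0.44 (edgeR adjusted p = 0.26). All 3 factors had their 3 day 4 libraries above their day 1 libraries. This held in 6 of the 28 genes of the list, beside 12.6% of all genes. Fgf7, the keratinocyte growth factor, overlapped between the days, at 30.3 ± 6.28 and 35.5 ± 6.16 CPM. Fgf21 overlapped as well, at 8.82 ± 4.32 and 5.11 ± 1.94 CPM. Of the factors for thymocytes, Kitl was at 47.4 ± 20.8 CPM at day 1 and 64.4 ± 6.55 CPM at day 4, and Cxcl12 at 927 ± 155 and 1097 ± 208 CPM, with overlap in both. Flt3l was at 3.76 to 4.92 CPM at day 1 and 5.03 to 6.55 CPM at day 4 (log2 fold change 0.37 ± 0.51, edgeR adjusted p = 0.78).

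Genes of the medulla and of antigen presentation were not called. Of 17 mTEC genes none passed the test in edgeR (median log2 fold change -0.30). At an unadjusted p under 0.05, 1 was higher and 3 lower (5.56% and 8.1% of all genes). DESeq2 called 1 lower (2.84% of all genes lower and 1.96% higher). Aire, which switches on tissue-restricted antigens in mTECs, was at 6.5, 6.97 and 10.7 CPM at day 1 and at 3.87, 3.06 and 4.83 CPM at day 4. For Aire, the log2 fold change was -1.04 ± 0.86 (edgeR adjusted p = 0.62). Krt5, a keratin of basal epithelium, was at 528, 377 and 690.3 CPM at day 1 and at 1092, 1294 and 919 CPM at day 4, with no overlap. In Krt5, the log2 fold change was 1.05 ± 0.50 (edgeR adjusted p = 0.32). The 19 genes of mimetic TECs that were tested had a median of -0.09 with none called by edgeR or DESeq2 (1 higher and 2 lower at an unadjusted p under 0.05). All 7 MHC class II genes had a fold change above 0 (median 0.57), none was called by either tool, and 1 had an unadjusted p under 0.05. H2-Ab1 was at 635, 623 and 1121 CPM at day 1 and at 1312, 1399 and 1206 CPM at day 4 (edgeR adjusted p = 0.55). None of the 12 genes of MHC class I presentation was called in edgeR, with 2 higher and 7 lower at an unadjusted p under 0.05, while DESeq2 called 1 higher and 3 lower. The peptide transporter Tap1 was at 404 ± 60.7 CPM at day 1 and 211 ± 24.8 CPM at day 4 (edgeR adjusted p = 0.061). H2-K1, which encodes a heavy chain and was named after its values were seen, was at 2079 ± 544 and 3617 ± 431 CPM (edgeR adjusted p = 0.19). At day 1, 5 of these 12 were above steady state (1.68% of all genes), and at day 4 none was called.

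Genes of vessel and wall cells held few calls in edgeR. None of the 22 endothelial genes was called in edgeR, with a median of -0.00, 2 higher and 2 lower at an unadjusted p under 0.05 (13.7% of all genes in either direction), and 1 called lower by DESeq2. The endothelial markers Pecam1 (328 ± 89.9 CPM at day 1 and 345 ± 39.5 CPM at day 4) and Cdh5 (38.4 ± 2.6 and 50.5 ± 7.75 CPM) had log2 fold changes of 0.07 ± 0.28 and 0.40 ± 0.26. Selp, the P-selectin of activated endothelium, was at 62.2, 56.4 and 34.6 CPM at day 1 and at 20.5, 15.9 and 21.4 CPM at day 4. For Selp, the log2 fold change was -1.41 ± 0.51 (edgeR adjusted p = 0.15). Of 12 pericyte and smooth muscle genes 1 rose and 1 fell (0.355% and 1.07% of all genes). At an unadjusted p under 0.05 in edgeR, 3 were higher and 2 lower (5.56% and 8.1% of all genes). DESeq2 called 2 higher and 1 lower (1.96% and 2.84% of all genes). Abcc9, a subunit of the potassium channel of pericytes, was at 98.5, 109 and 139 CPM at day 1 and at 270.2, 259.7 and 255 CPM at day 4 (log2 fold change 1.18 ± 0.30, edgeR adjusted p = 0.011). Its channel partner Kcnj8 was at 45.9 ± 7.25 and 103 ± 3.16 CPM (1.17 ± 0.36, edgeR adjusted p = 0.068). The call of Abcc9 was lost without day 1 replicate 2 or any 1 of the replicates of day 4 (0.055 to 0.065). Tagln, an actin-binding protein of smooth muscle, was at 33.1, 20.01 and 16.7 CPM at day 1 and at 5.36, 5.5 and 7.37 CPM at day 4 (log2 fold change -1.93 ± 0.55, edgeR adjusted p = 0.036), a call lost in 5 of 6 removals (up to 0.19). The 6 mesothelial genes (median 0.50) and 7 Schwann cell genes (median 0.97) held no call in edgeR. At an unadjusted p under 0.05 they held 1 and 3 higher genes (5.56% of all genes), and DESeq2 called 0 and 1 (1.96% of all genes higher). Msln, mesothelin, was at 377 ± 20.5 CPM at day 1 and 777 ± 204 CPM at day 4 (edgeR adjusted p = 0.30).

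**Figure D4:**
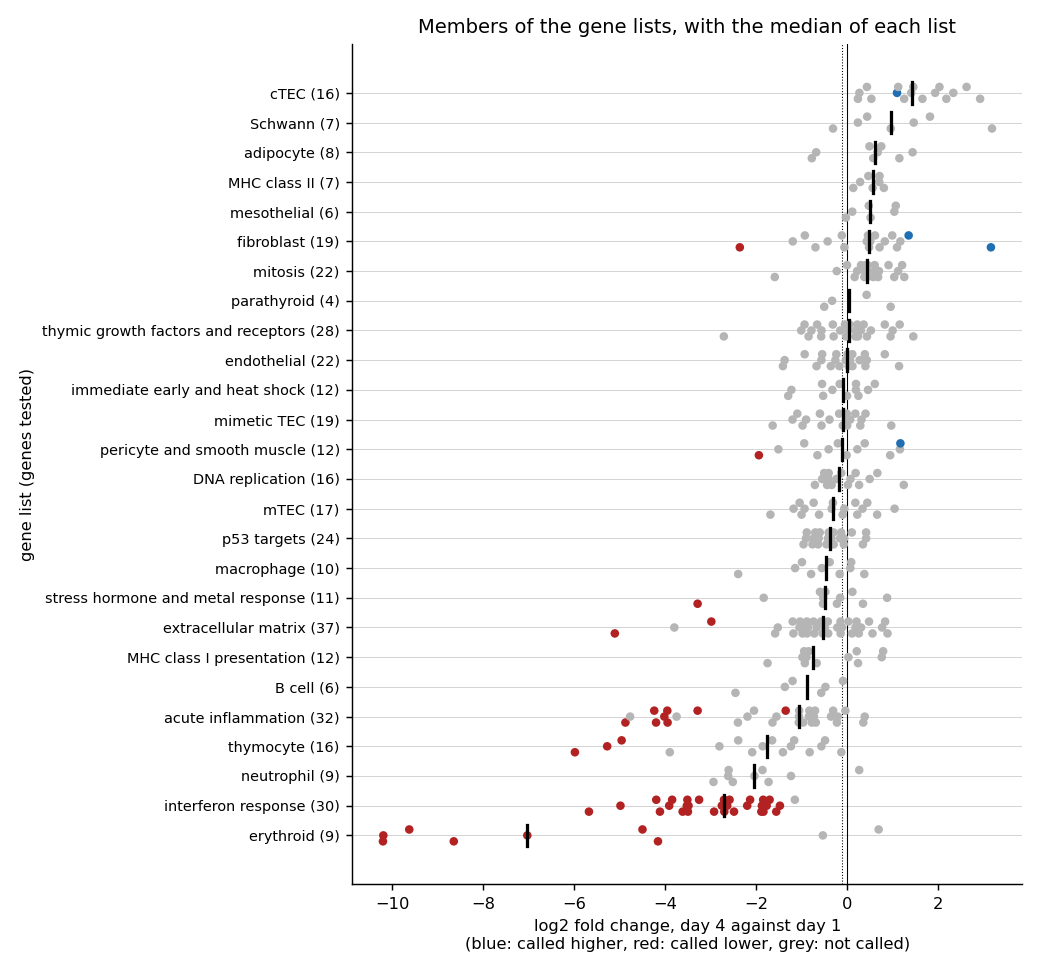
Each row is a gene list with the number of its genes tested, each point the log2 fold change of 1 gene at day 4 against day 1, the black bar the median of the list, and the dotted line the median of all genes tested (-0.10). The interferon list lies wholly left of 0 with a median of -2.70 and 29 red points, the cTEC list wholly right of 0 with a median of 1.44 and 1 blue point.

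Of the lists for cells outside the stroma, those of red cells and thymocytes held calls. The erythroid list had the lowest median log2 fold change of the lists examined, -7.02. The sum of the 9 erythroid genes tested was 18305, 4179 and 5109.5 CPM in the replicates of day 1 and 10.7, 15.4 and 13.6 CPM in those of day 4. It was 21387 to 36997 CPM at steady state and 2956 to 8509 CPM at day 7. Hbb-bs, a beta-globin gene, was at 11734, 2616 and 3149.8 CPM at day 1 and at 2.52, 6.88 and 5.31 CPM at day 4. In Hbb-bs, the log2 fold change was -10.20 ± 1.81 (edgeR adjusted p = 0.00012). Alas2, the first enzyme of heme synthesis in red cells, was at 966, 287 and 378 CPM at day 1 and at 5.74, 3.44 and 3.46 CPM at day 4. For Alas2, the log2 fold change was -7.02 ± 1.30 (edgeR adjusted p = 0.00017). Of the 9 genes 7 fell (1.07% of all genes), among them the globin genes Hba-a1, Hba-a2 and Hbb-bt. The near-identical pairs of globin genes (Hba-a1 with Hba-a2, Hbb-bs with Hbb-bt) could share reads. Against steady state, 8 of the 9 erythroid genes were lower at day 4, beside 0.24% of all genes tested that were lower there.

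Of 16 thymocyte genes 3 fell (1.07% of all genes) and none rose. Their sum was 186, 178 and 155 CPM in the replicates of day 1 and 35.6, 34.2 and 51.5 CPM in those of day 4. Steady state was at 325 to 1082 CPM and day 7 at 287 to 6676 CPM. In 13 of the 16 the day 4 libraries lay below those of day 1 (13.7% of all genes). The 3 that fell were the coreceptor genes Cd8b1 and Cd8a and the recombinase gene Rag1. Cd8b1 was at 26.1, 20.7 and 18.5 CPM at day 1 and at 0.0645, 0.263 and 0.574 CPM at day 4. In Cd8b1, the log2 fold change was -5.98 ± 1.45 (edgeR adjusted p = 0.0075). Rag1 was at 25.9, 23.9 and 17.7 CPM at day 1 and at 0.71, 0.316 and 1.15 CPM at day 4 (log2 fold change -4.95 ± 1.34, edgeR adjusted p = 0.023), while Cd8a was at 12.9 ± 2.07 and 0.301 ± 0.15 CPM (edgeR adjusted p = 0.012). The number called was 2, 2, 2, 0 and 1 without day 1 replicate 1, day 1 replicate 2 and day 4 replicates 1, 2 and 3, where the calls lost had adjusted p of up to 0.14. Ptprc, which encodes CD45, the antigen the sort removes, was at 14.99, 12.7 and 12.9 CPM at day 1, 4.07, 4.37 and 4.54 CPM at day 4 and 24.0 to 119 CPM at steady state (day 4 against day 1, log2 fold change -1.64 ± 0.91, edgeR adjusted p = 0.41).

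The other lists of this kind held no call in edgeR. None of 9 neutrophil genes was called in edgeR (median -2.03), while 5 were lower at an unadjusted p under 0.05 (8.1% of all genes) and 3 in DESeq2 (2.84% of all genes). S100a8, an abundant neutrophil gene, was at 11.8, 4.55 and 6.33 CPM at day 1 and at 0.71, 1.07 and 1.15 CPM at day 4. For S100a8, the log2 fold change was -2.93 ± 1.03 (edgeR adjusted p = 0.13). Ly6g, the defining neutrophil marker, was at 1.02 to 3.68 CPM at day 1 and 0.258 to 0.492 CPM at day 4. In 7 of the 9 the day 4 libraries lay below those of day 1 (13.7% of all genes), and the sum was 145 to 262 CPM at day 1 and 119 to 297 CPM at day 4. No macrophage gene of 10 (median -0.46), B cell gene of 6 (median -0.88), adipocyte gene of 8 (median 0.63) or parathyroid gene of 4 (median 0.06) was called in edgeR. At an unadjusted p under 0.05, 2 macrophage genes, 2 B cell genes and no adipocyte or parathyroid gene were lower, and DESeq2 called 1 B cell gene. The sum of the adipocyte list was 727 to 1037 CPM at day 1 and 1060.1 to 1638 CPM at day 4. The part of these cells in the falls of Ccl2, Ccl7, Lcn2 and the interferon genes was not tested.

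Seen from steady state, 58 genes were called at day 4, 10 higher and 48 lower, against 335 higher and 134 lower at day 1. The 10 that were higher included Kirrel3, Cirbp and, named after their values were seen, the matrix protease Mmp11 and the serine synthesis enzyme Psat1. Mmp11 was at 22.1, 41.1 and 95.2 CPM at day 1, at 205, 180.1 and 172 CPM at day 4 and at 31.4 to 61.4 CPM at steady state (day 4 against steady state, log2 fold change 2.10 ± 0.55, edgeR adjusted p = 0.044). Its change from day 1 to day 4 missed the threshold (1.81 ± 0.55, edgeR adjusted p = 0.06). Psat1 was at 112 ± 37.7 CPM at day 1, 186 ± 31.7 CPM at day 4 and 63.9 ± 14.4 CPM at steady state (day 4 against steady state, edgeR adjusted p = 0.028). The count of 58 was 19, 21 and 34 without day 4 replicates 2, 3 and 1, and 97 without the PBS library of day 4. The 469 genes called at day 1 were 252 without day 1 replicate 1, 296 without day 1 replicate 2, 274 and 280 without replicates 2 and 1 of PBS day 7, and 797 without the PBS library of day 4.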

How the data were processed

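Bulk RNA-seq of CD45- thymic cells was analysed from whole-number counts per gene as deposited by the authors, without normalization. According to the submitters' notes and the methods, the authors used Trimmomatic 0.38 for trimming, STAR 2.7.0e for alignment to GRCm38.p5 with GENCODE M12 genes, and featureCounts 1.6.3 for counting, and strand was not given in the sources used here. No per-sample column was left out (0 unused), and every row named a gene. Groups came from the labels. Symbols were matched for 53274 of 53379 identifiers. The comparison, the members and the gene lists were chosen with earlier results of these data known.

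All 13 libraries entered 1 edgeR 4.0.16 fit in R 4.3.3 (limma 3.58.1) with a term for group, TMM normalization, filterByExpr() by group and the quasi-likelihood F-test, and 19984 genes were tested. Genes were called at a Benjamini-Hochberg adjusted p of 0.05 or less. The SE was the log2 fold change divided by the normal quantile of its p. Total counts ran from 15721866 to 52056896, and SDs over libraries include counting error. The steps were tested on simulated data. No 2 replicates of a day agreed within sampling noise.

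The genes named were the 12 largest rises and 12 largest falls among called genes with a symbol and without overlap whose mean over the 6 libraries reached 5 CPM, the 4 largest changes of each list, and fixed sets of identity markers and growth factors. Other genes are marked as named after their values were seen. Some genes that the rule names are not reported here. Alternatives were RLE, DESeq2 1.42.0, no filter, at least 10 counts in every library, a fit of the 2 groups alone, the replicate number as a block, the tag as a covariate and each replicate left out. The tag in 2 levels and the removal of both replicates 1 were added after seeing the data. Promoters were RefSeq sequences of GRCm38.p6, whose coordinates are those of GRCm38. Tables and plots were made in Python 3.11.15 (matplotlib 3.10.9, pandas 2.3.3, numpy 2.4.6).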

Additional observations from a re-analysis of the deposited data

Results flagged for a closer look

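At steady state, where 4 libraries allow the check, 17 of 166 genes examined had 1 library far from the other 3, measured as its gap to the nearest library divided by the range of all 4 (Dixon's ratio). For independent genes with normal values, chance gives about 1 in 20, or 8.3 genes. Genes of a list can move together in a library, so that 8.3 is not a firm expectation here. The PBS library of day 4 stood apart in 10 of the 17, the PBS library of day 1 in 5 and replicate 2 of PBS day 7 in 2.

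In the PBS library of day 4, Saa3 was at 258 CPM and in the others at 8.43 to 20.9 CPM (ratio 0.95), Timp1 at 385 against 10.1 to 42.0 CPM (0.915), Tnc at 1140.5 against 353 to 397 CPM (0.944), Spp1 at 152 against 4.36 to 29.6 CPM (0.8291), Ccl2 at 31.1 against 6.78 to 9.41 CPM (0.892), Lcn2 at 37.7 against 8.04 to 13.1 CPM (0.8294) and Selp at 23.8 against 7.79 to 10.02 CPM (0.861). The same library was the lowest for Dpep1 at 312 against 427 to 449 CPM (0.841), for Omd at 11.6 against 17.2 to 17.7 CPM (0.917) and for Pax5 at 0.3 against 0.516 to 0.548 CPM (0.872).

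In the PBS library of day 1, Cxcl10 was at 88.9 CPM against 19.3 to 29.2 CPM (ratio 0.858), Gdf15 at 5.75 against 1.95 to 2.04 CPM (0.975), Ifit3 at 81.4 against 65.0 to 66.1 CPM (0.936), Ly6g at 3.57 against 0.4 to 0.818 CPM (0.869) and Retnlg at 0.526 against 0 to 0.05 CPM (0.905). In replicate 2 of PBS day 7, Per1 was at 18.9 CPM against 14.4 to 15.04 CPM (0.854) and Slfn8 at 32.4 against 24.7 to 25.6 CPM (0.887).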

How the results depend on the processing

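The 71 rises and 214 falls between days 1 and 4 became 392 and 568 with DESeq2, 31 and 227 with the 2 groups fitted alone, 14 and 149 with the tag as a covariate in 3 levels, and 4 to 91 and 82 to 196 with 1 replicate left out. With the tag in 2 levels they became 164 and 439, and with both replicates 1 left out 233 and 1952, and these last settings were chosen after seeing the data. With both replicates 1 left out, day 1 held only libraries without a k tag and day 4 only libraries with k3. That removal therefore cannot tell day from tag. The 58 genes called between day 4 and steady state became 645 with DESeq2, 250 without a filter, 20 with at least 10 counts in every library, 146 with the 2 groups alone, 33 with the tag in 3 levels and 19 to 97 with 1 library left out. The 469 genes called between day 1 and steady state became 1399 with DESeq2, 228 with the 2 groups alone, 1066 with the tag in 3 levels, 1487 with the tag in 2 levels and 252 to 797 with 1 library left out. Apart from the fewer samples or the different genes tested that some of these hold, the cause was not tested. Of the 12 largest rises, Dpep1 alone was called in 14 of 15 alternatives. Ifit3, Mx1, Cxcl10, Ccl7, Ccl2, Mmp3, Isg15, Hbb-bs and Alas2 were called in 15 of 15.

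The deviations of libraries with the same replicate number had correlations of -0.67, -0.37 and -0.39. Each such pair joined a library with a k tag to a library without, so that these values cannot say whether the numbers paired the libraries. With the replicate number as a block, 0 genes were higher and 56 lower, and 54 of the 285 called genes were shared. The groups of 3, the divided tag and low counts at day 4 (Cd8a, Cd8b1, Mmp13 and Saa2 under 1 CPM) limit precision.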

Other observations

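Further groups of genes that fell between the days were put together as lists after their values were seen. Their counts depend on that choice, and nothing is read from them. Of 13 immunity-related and guanylate-binding GTPases, which attack the vacuoles of pathogens, 10 fell from day 1 to day 4, beside 1.07% of all genes tested. The median log2 fold change of these GTPases was -1.93. Irgm1 was at 1002, 562 and 511 CPM at day 1 and at 171, 184 and 188 CPM at day 4 (log2 fold change -1.93 ± 0.44, edgeR adjusted p = 0.0044), all above its steady-state range of 99.0 to 141 CPM, without passing that test (edgeR adjusted p = 0.37). Of 7 genes of the Schlafen family, which restrain growth and viruses, 5 fell (median -2.74), and Slfn8 was at 232, 136 and 117 CPM at day 1 and at 22.6, 26.2 and 23.6 CPM at day 4 (log2 fold change -2.74 ± 0.52, edgeR adjusted p = 0.00031). Both calls were kept without any single replicate of either day.

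Chaperones and other genes of the unfolded protein response moved less. All 20, also listed after their values were seen, had a fold change below 0, with a median of -0.90. Of these, 3 fell, beside 1.07% of all genes tested. Some members went with the tag, such as Xbp1, at 135 CPM with a k tag and at 654 and 583 CPM without at day 1. At day 4 Xbp1 was at 488 CPM without a k tag and at 148 and 151 CPM with it. Others, such as Hspa5, did not go with the tag. Hspa5, the main chaperone of the endoplasmic reticulum, was at 4827, 2720.0 and 2350.5 CPM at day 1 and at 1249.7, 1019.9 and 685 CPM at day 4 (log2 fold change -1.74 ± 0.49, edgeR adjusted p = 0.033), lost in 5 of 6 removals of a replicate (up to 0.20). The steady-state libraries of Hspa5, at 1264 to 2734 CPM, lay above all 3 of day 4, without passing that test (edgeR adjusted p = 0.30). Hyou1, another chaperone, fell from 279 ± 54.5 to 85.6 ± 25.4 CPM (edgeR adjusted p = 0.014, and up to 0.097 without day 4 replicate 2 or 3). Dnajb11, a cochaperone, fell from 239 ± 24.9 to 94.5 ± 19.7 CPM (edgeR adjusted p = 0.0059, and up to 0.060 without day 4 replicate 2 or 3). Creld2 was at 70.5, 190.3 and 156 CPM at day 1 and at 70.0, 18.4 and 15.7 CPM at day 4 (log2 fold change -2.01 ± 0.66, edgeR adjusted p = 0.095). Within each day Creld2 was lower with a k tag. Without day 4 replicate 1, the only library of that day without a k, Creld2 was called (-2.97, edgeR adjusted p = 0.0097). Among the libraries of both days without a k, its difference on the log2(CPM + 0.5) scale was -1.30.

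The element of stress in the endoplasmic reticulum, written as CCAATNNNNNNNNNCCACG, was searched on both strands. Of these 20 genes 18 had a promoter and 8 held the element, against 0.119% of 32851 RefSeq promoters (GRCm38.p6). A gene was counted where any of its promoters held it, while the background counts single promoters. Parts of 3 promoters are shown on the strand of the gene with the matches in capitals, for Irgm1 the interferon-stimulated response element GAAANNGAAA (chr11:48871385-48871500, minus strand, matches that overlap), and for Hspa5 (chr2:34771975-34772093, plus strand) and Creld2 (chr15:88819470-88819588, plus strand, match on the other strand) the stress element.
Irgm1: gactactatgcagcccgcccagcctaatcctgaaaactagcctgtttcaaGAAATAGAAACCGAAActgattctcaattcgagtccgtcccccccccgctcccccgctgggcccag
Hspa5: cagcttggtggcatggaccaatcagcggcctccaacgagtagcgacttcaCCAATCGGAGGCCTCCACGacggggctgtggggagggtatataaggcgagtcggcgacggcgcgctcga
Creld2: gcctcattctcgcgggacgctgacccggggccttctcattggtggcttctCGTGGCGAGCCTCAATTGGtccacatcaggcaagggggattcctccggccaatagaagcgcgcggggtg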
